A study of Drosophila melanogaster with 64 samples.

Results

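The spermathecae and the parovaria are the secretory glands of the Drosophila melanogaster female reproductive tract (FRT), and their transcriptomes were compared before mating. The comparison used 8 of the 64 RNA sequencing libraries in the study, 4 of unmated spermathecae and 4 of unmated parovaria, chosen by their tissue and mating labels alone. The series covers dissected FRT tissues and the associated fat body of females that were unmated or had mated 6 h or 24 h before. Females of both groups were virgins of the wild-type laboratory strain LHM aged 3 to 8 days, with no transgene or mutation. Each library was made from total RNA of tissue pooled over many females, and both organs of a pair were taken with their duct when possible, so a library averages secretory cells, duct epithelium and any attached muscle, fat and trachea. In such bulk samples a lower level of a transcript can come from fewer cells of a type or from less RNA per cell, and these cannot be told apart. Replicates 1 and 2 of each gland came from sequencing run 1 and replicates 3 and 4 from run 2.

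The spermathecae are paired, cuticle-capped organs that hold sperm for long-term storage, and a layer of secretory cells around each capsule releases proteins into its lumen and the tract. The parovaria, also called female accessory glands, are paired glands with secretory cells that open into the tract beside the spermathecal ducts but hold no sperm. The secretory cells of both glands are known to arise in development under the nuclear receptor Hr39 and the Runx factor lozenge (lz), and they are needed for fertility. The comparison therefore asks which transcripts separate a gland that stores sperm from a gland of like build and origin that does not.

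Total counts per library ran from 23982936 to 26460984. The Pearson correlation of log2 levels was 0.956 to 0.985 between libraries of the same gland and 0.826 to 0.870 between glands. The first principal component separated the glands and held 76.4% of the variance, and the second, with 9.26%, separated the runs. Marker lists of other tissues were low in both glands but not equal. Muscle markers summed to 1619 ± 163 TMM-scaled CPM in spermathecae and 2456 ± 93.4 in parovaria, and fat body markers to 1468 ± 248 and 2863 ± 354 (SD, n = 4 each). TMM-scaled CPM are counts divided by library size, with the size corrected for the make-up of the library by the TMM method in edgeR. Of the tested markers, 22 of 27 for muscle, 11 of 11 for fat body and 9 of 9 for hemocytes were lower in spermathecae by any amount. At a Benjamini-Hochberg p of 0.05, 15, 7 and 6 of them were lower and 1, 0 and 0 higher in spermathecae. Of all genes, 21% were lower and 21.2% higher at that threshold. At the stricter threshold used for calls below, 0, 1 and 0 of the markers were called. Gut markers summed to 420 in spermathecae replicate 1, against 8.72 to 16.4 in the other 3 and 5.22 to 12.2 in parovaria. Of 5 tested gut markers, 4 were higher in spermathecae at a Benjamini-Hochberg p of 0.05, and the median log2 fold change was 4.02. None of the gut genes was called at the stricter threshold. Without spermathecae replicate 1, 283 genes differed between the glands.

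Of 7448 genes tested, 394 differed between the unmated glands at a Bonferroni-adjusted p of at most 0.01 in edgeR's quasi-likelihood test, which is 5.29% of all genes tested. Spermathecae had the higher level for 239 of them (3.21% of genes tested) and parovaria for 155 (2.08%). The 4 spermathecal and 4 parovarian libraries did not overlap for any of the 394 genes, but the same was true of 2994 of all genes tested (40.2%). The median log2 fold change over all tested genes was 0.03. The count moved most with the threshold among the alternatives tried. A Benjamini-Hochberg adjustment at 0.05 called 3138 genes (42.1%), 1577 of them higher in spermathecae and 1561 higher in parovaria, and DESeq2 called 1207 genes, 593 higher in spermathecae and 614 higher in parovaria. In run 1 alone 135 genes were called, and 124 in run 2 alone, with 83 and 79 of them higher in spermathecae. Without spermathecae replicate 3 there were 268 calls, 103 of them higher in parovaria. Genes expressed above 2 CPM in at least 2 libraries numbered 7208 in spermathecae and 7060 in parovaria, and 6820 were shared, which is 94.6% of the spermathecal and 96.6% of the parovarian genes. Genes expressed in 1 gland alone numbered 388 in spermathecae and 240 in parovaria. Which gland had more turned with the scaling, since on TMM-scaled library sizes 7081 genes were expressed in spermathecae and 7177 in parovaria, with 267 and 363 in that gland alone.

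**Figure D1:**
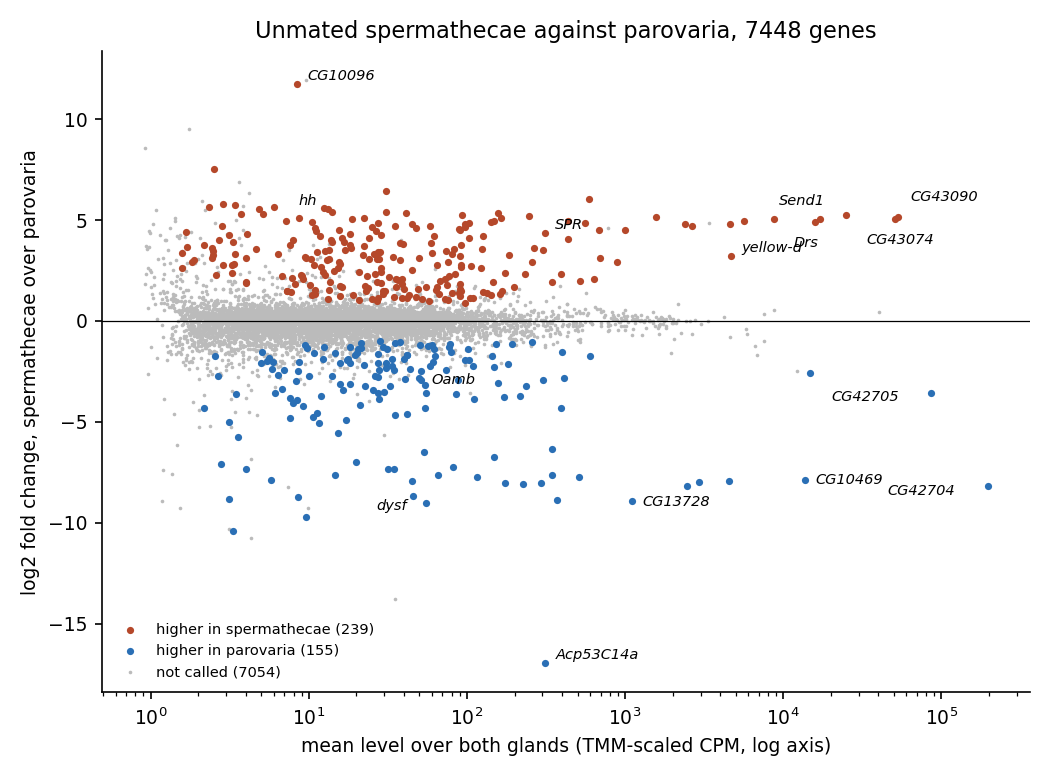
Each point is 1 of 7448 genes, with its mean level over both glands on the horizontal axis (TMM-scaled CPM, log axis) and its log2 fold change, spermathecae over parovaria, on the vertical axis. The 239 genes called higher in spermathecae form a band that rarely passes 6, whereas 30 of the 155 genes called higher in parovaria lie at or below -7.

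A few transcripts dominated each gland. The most abundant gene of each library took 10.8%, 10.1%, 12.6% and 14% of all counts in spermathecae and 29.6%, 27.8%, 36.9% and 38.9% in parovaria. The means of 11.9 ± 1.77% and 33.3 ± 5.44% did not overlap between the glands (SD, n = 4 each, exact permutation test, two-sided, p = 0.0286, the smallest that 4 against 4 libraries allow). The 10 most abundant genes took 46.5 ± 3.21% of counts in spermathecae and 59.9 ± 5.89% in parovaria (exact permutation test, two-sided, p = 0.0286). Within each gland the share of the most abundant gene was higher in both run 2 libraries than in both run 1 libraries.

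In spermathecae the leading transcripts were CG43090 and CG43074, which are unnamed protein-coding genes with no role stated here. CG43090 (X, 6199216 to 6199891) stood at 80546, 85306, 115434 and 130792 TMM-scaled CPM in spermathecae, against 2892, 2173, 3460 and 3186 in parovaria. CG43074 (3L, 3483832 to 3484653) stood at 90943, 85037, 105664 and 113955 in spermathecae, against 3199, 2451, 3232 and 3174 in parovaria. Every spermathecal library was far above every parovarian library for both genes. The log2 fold changes were 5.14 ± 0.24 for CG43090 and 5.04 ± 0.16 for CG43074 (SE, adjusted p = 2.6e-05 and 1.2e-06). Per exonic length these were also the leading genes, at 172420 and 153637 TPM, which scales counts by length, followed by Drosomycin (Drs) at 83032 TPM and Send1 at 58332 TPM. CG43074 lies within CG42324 on the opposite strand. The counting is not stated to use strand, so reads of overlapping genes cannot be told apart.

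Secreted serine proteases were prominent among the abundant spermathecal transcripts. Send1 (spermathecal endopeptidase 1), a protease of the spermathecal secretory cells, stood at 48558, 42227, 53143 and 49322 TMM-scaled CPM in spermathecae, against 1618, 957, 1283 and 1260 in parovaria (log2 fold change 5.24 ± 0.19, adjusted p = 3.2e-06). Of 8 tested members of a list of spermathecal serine proteases 6 were called, all higher in spermathecae, and the summed level was 110016 to 128831 in spermathecae and 2794 to 4285 in parovaria. The list's median log2 fold change was 5.0, against 0.03 over all genes tested. CG31681 (33059 ± 3929 against 1005 ± 156), CG17239 (17012 ± 1816 against 506 ± 97.1), Ser12 (11019 ± 1780 against 353 ± 49.7), CG32277 (3044 ± 417 against 85.7 ± 20.9) and Send2 (1081 ± 436 against 37.9 ± 13.1) were the other 5, given as means ± SD in spermathecae against parovaria (n = 4 each). The list was named for this gland, so its direction is not independent evidence.

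The 2 listed proteases that missed the threshold varied widely between libraries. CG17234 stood at 917, 714, 2354 and 2025 TMM-scaled CPM in spermathecae, against 41.8, 34.2, 95.4 and 77.9 in parovaria, so its levels were higher in run 2 than in run 1 in both glands (adjusted p = 0.061). CG9897 stood at 9096, 9904, 0.381 and 7061 in spermathecae, against 365, 256, 146 and 136 in parovaria. Spermathecae replicate 3 thus held 10 counts of a gene for which the other 3 held 181568 to 300658. CG9897 was the sole gene of either gland with at most 10 counts in 1 library and at least 1000 in each of the other 3. Its log2 fold change was 4.85 ± 1.64 (adjusted p = 1) and 5.26 ± 0.38 without that library (adjusted p = 0.0045). An annotated antisense RNA, asRNA:CR42742, overlaps CG9897 on the opposite strand and stood at 1628, 1218, 1281 and 1145 in spermathecae, against 50.8, 31.3, 71 and 79 in parovaria, with no gap in replicate 3.

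Drs, an antifungal peptide of the Toll response, stood at 24362, 27435, 36995 and 33812 TMM-scaled CPM in spermathecae, against 1154, 730, 1004 and 1206 in parovaria (log2 fold change 4.90 ± 0.22, adjusted p = 2.2e-05). In plain CPM it averaged 34536 in unmated spermathecae, 138567 in unmated seminal receptacle and 8402 in unmated bursa, so spermathecae were not its highest tissue. Drs was the 1 antimicrobial peptide called among 23 tested, a share near the 5.29% of all genes. Of the 23, 21 were lower in spermathecae by any amount. Of 6 tested C-type lectins 4 were called, all higher in spermathecae, beside 3.21% of all genes tested. The median log2 fold change over the list was 4.56. lectin-37Da was at 757, 781, 926 and 916 in spermathecae, against 31.4, 22.4, 27.2 and 27.7 in parovaria, and lectin-37Db at 424, 426, 556 and 522 in spermathecae, against 14.6, 9.26, 14.3 and 13.6 in parovaria. lectin-33A and Lectin-galC1 were called with log2 fold changes of 4.70 and 4.42 but at 5.46 ± 1.46 and 3.17 ± 0.40 in spermathecae. Both passed the expression filter through spermathecae alone. Their direction was thus close to fixed by the filter, and they add no support to the list's share or median. lectin-24Db and lectin-28C were not called. Both lectin-37D genes and Lectin-galC1 lie within Pax on the opposite strand, and Pax had a log2 fold change of 0.27.

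In parovaria CG42704 alone took 33.3% of all counts, and per exonic length it stood at 508602 TPM. This unnamed protein-coding gene (X, 7412668 to 7413296) stood at 805, 1452, 1486 and 1609 TMM-scaled CPM in spermathecae, against 302680, 254160, 488226 and 518214 in parovaria (log2 fold change -8.19 ± 0.39, adjusted p = 3.4e-05). Its neighbour CG42705 (X, 7413869 to 7414662) stood at 13796, 11936, 13910 and 14562 in spermathecae, against 133242, 113369, 198176 and 191827 in parovaria (log2 fold change -3.55 ± 0.21, adjusted p = 0.00022). The pair thus led the parovaria together but parted in spermathecae, where CG42704 was at 0.34% and CG42705 at 8.51% of its parovarian mean. CG42705 was the eighth most abundant transcript of the spermathecae per exonic length, at 19353 ± 1432 TPM.

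CG10469, CG42780 and CG10154 followed in level. CG10469 stood at 92.3, 146, 108 and 117 TMM-scaled CPM in spermathecae, against 25933, 19465, 33922 and 30144 in parovaria (log2 fold change -7.88 ± 0.26, adjusted p = 1.5e-06). CG10154 stood at 29, 44.1, 37.5 and 38 in spermathecae, against 9759, 7604, 8906 and 10070 in parovaria (log2 fold change -7.93 ± 0.20, adjusted p = 9.4e-08). CG42780 was a gene of both glands, at 4329, 4350, 4353 and 4060 in spermathecae, against 24248, 20952, 28295 and 27388 in parovaria (log2 fold change -2.56 ± 0.12, adjusted p = 3.3e-05). CG10469 shares 110 bases with CG10467 on the same strand. CG42780 lies within CG1677 and lncRNA:CR44357 on the same strand. Counts of CG10469 and CG42780 could be split with those genes. The log2 fold changes were -3.75 for CG10467, 0.27 for CG1677 and 6.89 for lncRNA:CR44357, the last in the direction opposite to CG42780. CG43134 and CG43255, which were the third and the seventh most abundant per exonic length in parovaria, were not called. CG43134 was at 2471, 2524, 5119 and 4804 in spermathecae, against 18774, 12988, 26729 and 24945 in parovaria (adjusted p = 0.21), with a difference between runs inside each gland, and CG43255 at 3222 ± 85.8 in spermathecae and 10373 ± 2676 in parovaria (adjusted p = 0.041). These last 2 genes were picked after their values were seen. CG43255 lies within rdgA on the same strand, so their counts could be split too. The log2 fold changes were -1.69 for CG43255 and -1.71 for rdgA.

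**Figure D2:**
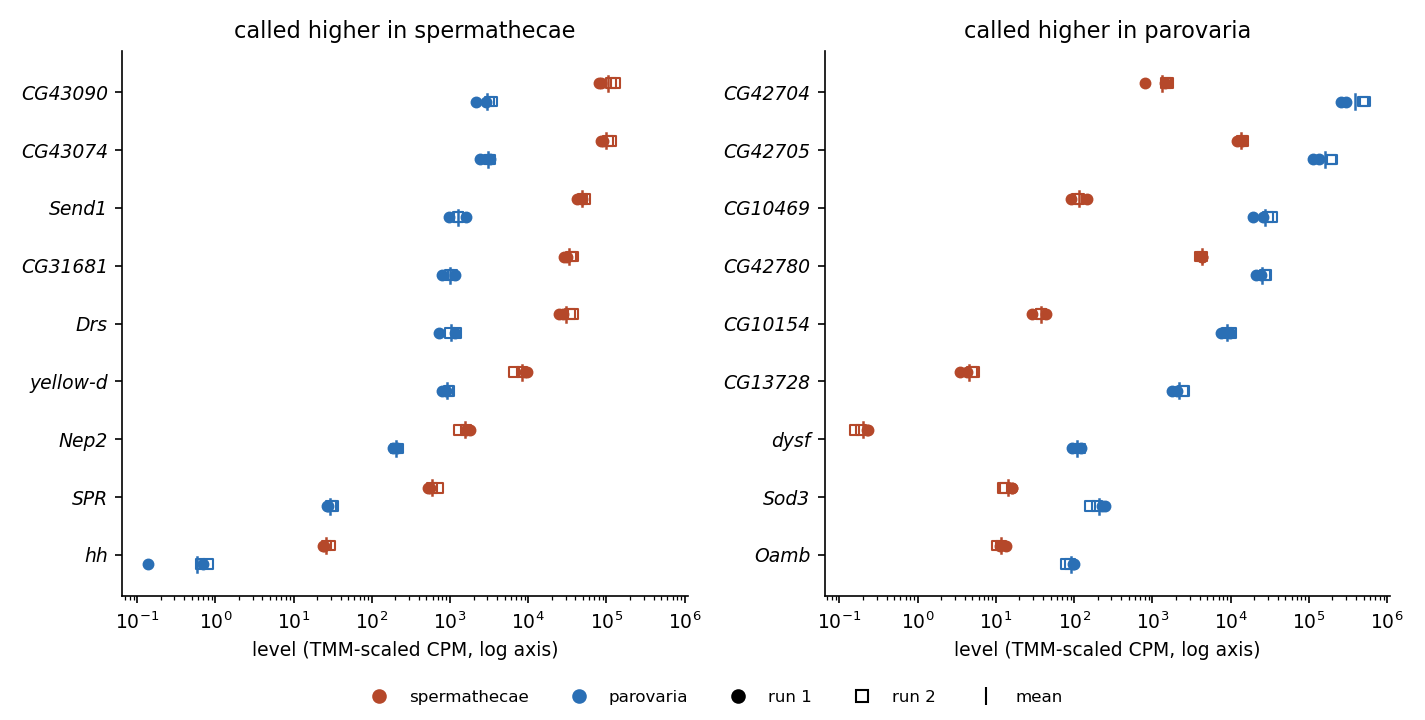
Level of 9 genes called higher in spermathecae (left) and 9 called higher in parovaria (right) in each of the 8 libraries (TMM-scaled CPM, log axis), with spermathecae above parovaria in each row, filled circles for run 1, open squares for run 2 and a bar for the mean of 4. No spermathecal point overlaps a parovarian point of the same gene, and CG42704 and CG42705, both far to the right in parovaria, lie apart in spermathecae at 1338 and 13551.

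The largest fold changes were more often in the parovarian direction, although the typical size was not greater there. The median size of the log2 fold change was 3.10 among the 239 genes higher in spermathecae and 2.90 among the 155 higher in parovaria, but 4 genes passed 6 in the spermathecal direction and 33 in the parovarian direction. Leaving out genes with at most 3 counts in the other gland, the numbers were 2 and 29. Among genes with a mean of at least 10 TMM-scaled CPM, the 12 largest changes in spermathecae started at 5.26 for CG7695. CG10096, which has no finite ratio, was at 17.6, 16.7, 18.6 and 14.8 in spermathecae and at 0 counts in all 4 parovaria, at least 517-fold higher against a floor of 3 counts over the group. The annotation gives CG10096 and CG10097 the same span on the same strand (3R, 12390166 to 12395980), and CG10097 was at 0.175 ± 0.0479 in spermathecae and 0.84 ± 0.77 in parovaria, so how reads were shared between the names is unknown. Next were BG642167 (60.5 ± 22.6 against 0.729 ± 0.349) and CG13318 (1160 ± 45 against 17.5 ± 5.37), with log2 fold changes of 6.43 and 6.05.

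Several of the largest spermathecal changes were in genes of known function. hh, the Hedgehog ligand, was at 23.6, 24.6, 29 and 26.4 in spermathecae, against 0.698, 0.138, 0.648 and 0.814 in parovaria (log2 fold change 5.55 ± 0.34, adjusted p = 0.00031). rk, the receptor for the tanning hormone bursicon, was at 23.1, 25.8, 31.5 and 29.2 in spermathecae, against 0.465, 0.899, 0.648 and 0.542 in parovaria (5.39 ± 0.20, adjusted p = 4.6e-06). All 4 spermathecal libraries were over 20 for both genes and all 4 parovarian libraries under 1. The transporters Oatp33Eb (24.5 ± 3.21 against 0.492 ± 0.0986) and MFS9 (309 ± 41.2 against 7.49 ± 1.11), the acyl-CoA desaturase relative CG9747 (80.2 ± 10.2 against 1.97 ± 0.619) and vanin-like (11.8 ± 3.96 against 0.222 ± 0.0473) had log2 fold changes between 5.36 and 5.67. CG17134, CG32727 and CG7695 completed the 12. CG17134 lies within Nos, and CG7695 within qin and CG14304.

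Acp53C14a, among the 12 largest changes in the parovarian direction, is named for its transcription in male accessory glands. It was at 0 counts in all 4 spermathecae, against 884, 588, 535 and 499 TMM-scaled CPM (9191 to 22809 counts) in parovaria. In the 53 libraries of the series that were not parovaria it was at 0 in 38 and between 64 and 450 counts in 15, with no library between 1 and 63, so an exact 0 may not mean that no read was present and its rank among these genes is uncertain. dysf, a bHLH-PAS factor of tracheal fusion cells, was at 0.228, 0.231, 0.19 and 0.156 in spermathecae, against 94.4, 122, 118 and 106 in parovaria (log2 fold change -9.05 ± 0.17, adjusted p = 7e-09). Tracheal markers summed to 32.2 to 43.4 in spermathecae and 89.5 to 105.0 in parovaria. Of the 4 tested, Gasp was called (3.59 ± 0.742 against 51.8 ± 5.15), and 1 was higher and 2 were lower in spermathecae at a Benjamini-Hochberg p of 0.05. The part of attached trachea in the level of dysf was not tested. klg, an immunoglobulin-family adhesion protein, was at 0, 0.0659, 0.0762 and 0 in spermathecae, against 12.1, 22.8, 13.5 and 20.1 in parovaria (-8.73 ± 0.48, adjusted p = 0.00012). CG8641, CG13728, CG42329, CG34290, CG18258, CG42704, CG12546, CG14452 and CG14453 were the rest. CG8641 had 2 counts over all 4 spermathecae and 15.8 to 23.2 TMM-scaled CPM in parovaria, and the other 8 had log2 fold changes between -8.95 and -8.01. CG13728 was the highest of them after CG42704 and CG18258, at 4.48 ± 0.805 in spermathecae and 2209 ± 356 in parovaria.

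Of the 59 seminal fluid genes in the table, 6 were expressed enough to be tested. Of these, 4 were called higher in parovaria, beside 2.08% of all genes tested. All 4 passed the expression filter through parovaria alone. Their direction was thus close to fixed by the filter, and the share is not evidence about the list. Acp53C14b was at 0.0412 ± 0.0824 in spermathecae and 11.4 ± 3.63 in parovaria, Sfp53D at 0.00824 ± 0.0165 and 6.20 ± 1.03, and Acp53Ea at 0.0385 ± 0.0444 and 5.53 ± 2.24. With Acp53C14a, CG15617 and CG34189 the 3 form a run of 6 genes called higher in parovaria at 2R 16744295 to 16754925. The exception in the other direction was mfas (52.9 ± 5.79 against 11.8 ± 1.30, log2 fold change 2.16), a secreted matrix protein outside that cluster, and EbpIII was not called (51.3 ± 6.56 against 61.6 ± 16.3).

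Some called genes lie beside each other in the genome. Of 238 spermathecal genes with a position, 85 had another called gene of the same direction within 10000 bases and 6 had one of the other direction, and the counts were 41 and 8 of 154 for parovarian genes. On 2L, Ser12, CG17239 and Send1 lie at 2250431 to 2255050, and CG4271 and CG31681 at 2283705 to 2286873 together with lncRNA:CR43754. On X, CG32750, CG32751, CG43090 and vanin-like lie at 6194737 to 6202559, all higher in spermathecae. On 3L, CG14456, CG12546, CG14453 and CG14452 lie at 22687222 to 22696435, all higher in parovaria. CG14456 was the most abundant of these 4, at 13.6, 17.2, 34 and 26.9 in spermathecae, against 3633, 2561, 8123 and 8953 in parovaria. CG42821 and CG42822 (3R) and Cyp6a23, Cyp6a9 and Cyp6a8 (2R) were further parovarian neighbours. These clusters were listed after the calls were known. No share of neighbours was computed over all genes tested, so the counts have no background to stand beside. Some neighbours overlap, such as Ctr1B and lncRNA:CR45215 or tkv and CR14033, and the counting is not stated to use strand.

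Many of the abundant transcripts of each gland were found at a low share of their level in the other gland. Among 34 genes called higher in spermathecae with a mean of at least 300 there, 21 were in parovaria at 1.51% to 6.00% of their spermathecal mean, with a median of 3.21%, and none was below 1.51%. This set held CG43090 (2.84%), CG43074 (3.05%), Send1 (2.65%), CG31681 (3.04%), Ser12 (3.21%), Drs (3.34%) and lectin-37Da (3.21%), whose spermathecal levels differed widely. The median over these 21 genes was 3.71%, 2.49%, 3.28% and 3.10% in parovaria replicates 1 to 4. In the other direction, among 34 genes called higher in parovaria with a mean of at least 200 there, 16 were in spermathecae at 1.24% or less of their parovarian mean, with a median of 0.39%. CG42704 (0.34%), CG18258 (0.34%), CG10154 (0.41%), CG10469 (0.42%) and CG42822 (0.48%) were among them. The remaining 13 spermathecal genes were at 8.07% to 30.9%, with no clear gap, since single libraries of Spn88Ea inside the range and Ncc69 outside it overlapped. The remaining 18 parovarian genes were at 5.02% to 49.0%. yellow-d was in parovaria at 10.8% of its spermathecal level, Nep2 at 13% and Drip at 26.7%, and Sod3 was in spermathecae at 6.95% of its parovarian level, NLaz at 13.9% and CG42780 at 16.9%.

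Transcripts of both glands also appeared in dissected tissues beside them. In plain CPM, Send1 averaged 54686 in unmated spermathecae and 1135 in parovaria, and 587, 939, 1861 and 691 in bursa, oviduct, seminal receptacle and fat body, against 1.06 in whole females without the lower tract. CG42704 averaged 1506 in spermathecae and 332911 in parovaria, and 1142, 2339, 3273 and 762 in the same 4 tissues, against 4.04 in whole females. CG42704 in spermathecae was thus within the range of tissues that are not its main source, whereas CG42705 at 15340 CPM in spermathecae was above the 650 to 1779 of those 4 tissues. Carry-over between tissues at dissection or between libraries, and low transcription in the other gland, cannot be told apart here. The thresholds and ranges were chosen after the values were seen.

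**Figure D3:**
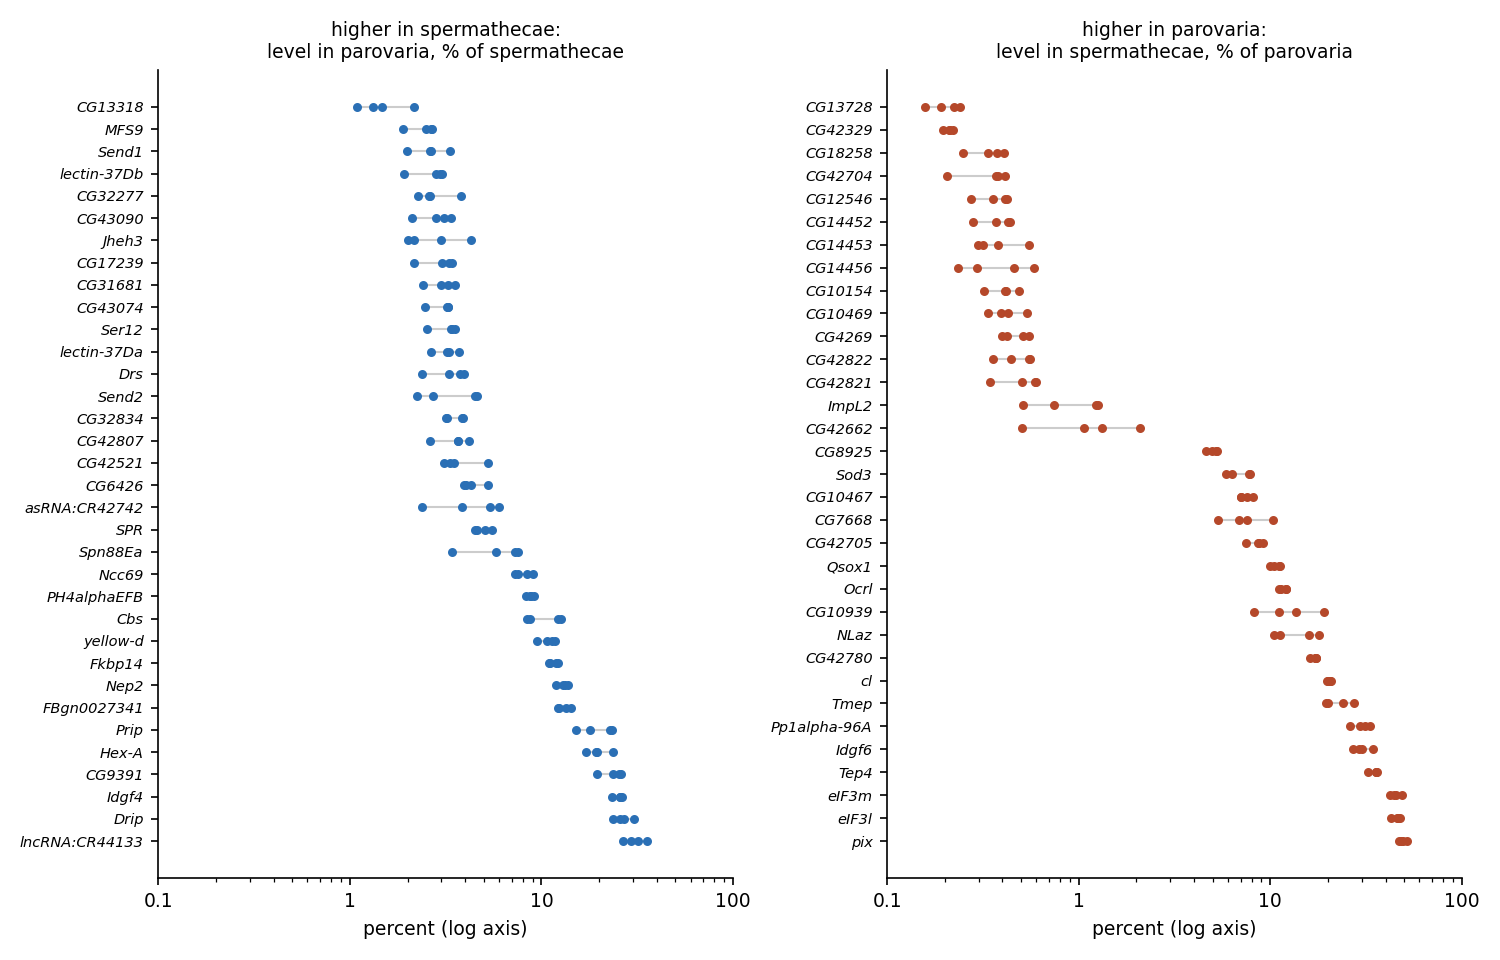
For genes called higher in spermathecae with a mean of at least 300 TMM-scaled CPM (left) the level in each parovaria library is shown as a percent of the spermathecal mean, and for genes called higher in parovaria with a mean of at least 200 (right) the level in each spermathecae library as a percent of the parovarian mean (log axes, 4 points a gene). Acp53C14a, at 0 in spermathecae, is not drawn. On the left 21 genes lie between 1.51% and 6.00%, and on the right 15 lie at 1.24% or less, with a gap up to 5.02%.

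Receptors of the postmating response differed in opposite directions. SPR, the receptor for the male sex peptide, was at 554, 523, 586 and 707 in spermathecae, against 27.2, 26.5, 30 and 32.5 in parovaria (log2 fold change 4.35 ± 0.13, adjusted p = 6.8e-07). Its parovarian level was 4.90% of the spermathecal mean, inside the range of 1.51% to 6.00% described above. In plain CPM SPR averaged 669 in unmated spermathecae, 1151 in bursa and 2282 in oviduct, so spermathecae were not its highest tissue. Oamb, an octopamine receptor required for ovulation, was at 11.3, 13.6, 11.6 and 10.4 in spermathecae, against 95.5, 99.3, 77.9 and 87.8 in parovaria (-2.94 ± 0.12, adjusted p = 1.1e-05). No library of either gland came near the other gland's range for these receptors. Among 7 tested members of the sex peptide receptor network 2 were called, SPR and the neprilysin peptidase Nep2, beside 5.29% of all genes. Nep2 was at 1592, 1789, 1601 and 1312 in spermathecae, against 210, 187, 218 and 204 in parovaria. Nep1 (21.1 ± 1.11 against 2.30 ± 1.13, adjusted p = 0.013) and hdly (133 ± 43.8 against 39.5 ± 9.14, adjusted p = 0.54) missed the threshold, and frma, Esp and Nep4 had log2 fold changes of 0.44, 0.51 and -0.45. Octbeta2R, the other octopamine receptor tested, was at 5.41 ± 1.55 in spermathecae and 1.44 ± 0.206 in parovaria (adjusted p = 0.15).

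Of 23 tested signalling ligands and receptors, 5 were higher in spermathecae and 2 in parovaria, beside 3.21% and 2.08% of all genes. Besides hh, the spermathecal genes were the BMP receptor tkv (41.8 ± 2.40 against 16.7 ± 0.959), the Wnt receptors fz2 (21.4 ± 2.26 against 5.65 ± 1.03) and fz3 (3.36 ± 0.382 against 0.413 ± 0.0879), and the ligand Wnt2 (16.9 ± 2.22 against 1.91 ± 0.637). The parovarian genes were dpp, the BMP ligand, at 2.02, 2.08, 1.98 and 2.53 in spermathecae, against 9.77, 14.3, 11.1 and 11.9 in parovaria, and N, the Notch receptor, at 1.46, 1.35, 1.56 and 2.45 in spermathecae, against 9.69, 12.1, 9.45 and 12.7 in parovaria. Ligand dpp and receptor tkv therefore differed in opposite directions between the glands. tkv has the transcribed pseudogene CR14033 and other genes within its span. Of the called genes, hh, fz3, Wnt2 and N passed the expression filter only through the gland where they were higher.

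Of the factors that specify both glands, lz was called and Hr39 was not. lz was at 9.66, 11.1, 10.2 and 12 in spermathecae, against 3.33, 3.84, 3.89 and 4.29 in parovaria (log2 fold change 1.49 ± 0.12, adjusted p = 0.0048). Hr39 was at 19.8, 17.4, 27.3 and 34.1 in spermathecae, against 8.87, 18, 16.5 and 13.3 in parovaria, with overlapping libraries and no call (0.80 ± 0.26, adjusted p = 1). Of 19 tested identity factors 2 were called, beside 5.29% of all genes. The other call was bowl, a zinc-finger factor (49.4 ± 9.99 against 5.92 ± 1.54). Abd-B, the most posterior Hox gene, was at 11.4 in spermathecae and 73.6 in parovaria without passing the threshold (-2.69 ± 0.25, adjusted p = 0.014), while abd-A was at 18.0 and 3.88 (2.20 ± 0.30, adjusted p = 0.32).

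Of the genes of the cuticle and its tanning that were called, 6 were higher in spermathecae and 1 in parovaria. yellow-d, of the yellow family of secreted proteins, was at 9117, 9696, 8327 and 6522 in spermathecae, against 897, 799, 959 and 987 in parovaria (log2 fold change 3.21 ± 0.15, adjusted p = 2.9e-05), and yellow-d2 at 5.66 ± 0.427 in spermathecae and 0.84 ± 0.293 in parovaria. These were the 2 called of 12 tested pigmentation genes. Beside this count and that of the cuticle proteins below, 5.29% of all genes tested were called. Ddc, dopa decarboxylase, was at 9.18 in spermathecae and 1.37 in parovaria (adjusted p = 0.012) and was not called. Among 14 tested cuticle proteins Cpr66Cb (30.9 ± 1.85 against 2.71 ± 0.476), Cpr62Bb, TwdlU and Cpr62Ba were higher in spermathecae, and Gasp, a chitin-binding protein of tracheae, was higher in parovaria. Both yellow genes lie within CG13551, which had a log2 fold change of 1.21. Of the called genes, yellow-d2, TwdlU and Cpr62Ba passed the expression filter through spermathecae alone.

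Of 4 tested aquaporins, channels for water and small solutes, 3 were called, all higher in spermathecae, beside 3.21% of all genes tested. Drip was at 518, 434, 579 and 663 in spermathecae, against 141, 129, 148 and 167 in parovaria (log2 fold change 1.91 ± 0.14, adjusted p = 0.0022), Prip at 362, 397, 422 and 379 in spermathecae, against 69.9, 58.9, 91.1 and 89.3 in parovaria (2.34 ± 0.15, adjusted p = 0.00053), and the entomoglyceroporin Eglp2 at 6.38 ± 1.01 in spermathecae and 1.68 ± 0.0625 in parovaria. Eglp4, whose span overlaps Eglp2, was at 34.2 ± 7.67 in spermathecae and 54.7 ± 7.52 in parovaria and was not called. Eglp2 passed the expression filter through spermathecae alone. Chosen after their values were seen, the sodium-potassium-chloride cotransporter Ncc69 (492 ± 30.8 against 39.7 ± 3.96), the carbonic anhydrases CAH8 (276 ± 32.6 against 9.05 ± 1.47) and CAH2 (89.3 ± 1.38 against 10.4 ± 0.936) and the copper transporter Ctr1B (173 ± 13.5 against 7.49 ± 1.02) were called as well.

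Immune and protease-control genes were split. Their counts stand beside 5.29% called among all genes tested. Peptidoglycan recognition proteins had 3 calls of 9 tested. PGRP-LA and PGRP-LC, which act in the Imd pathway, were higher in spermathecae by 0.99 and 0.98 on the log2 scale, and PGRP-LB, an amidase that dampens it, was lower by 1.58, at 7.15, 7.58, 7.01 and 7.54 in spermathecae, against 20.9, 18.4, 25.3 and 22.9 in parovaria. The serpin Spn88Ea was at 820 ± 80.7 in spermathecae and 49.2 ± 15.4 in parovaria (log2 fold change 4.06 ± 0.25, adjusted p = 0.00033), and Spn42Dc was called too (37.6 ± 3.07 against 17.2 ± 0.982), 2 of 11 tested serpins. The thioester protein Tep4 (207 ± 9.73 against 594 ± 105) and the scavenger receptor emp (42.5 ± 1.22 against 163 ± 18.4) were higher in parovaria. They were the 1 call of 11 tested thioester and Nimrod proteins and the 1 of 5 tested scavenger receptors.

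Of 55 tested cytochrome P450 genes 6 were higher in spermathecae and 4 in parovaria, which is 10 of 55 beside the 5.29% called among all genes. The spermathecal ones included Cyp305a1 (111 ± 9.56 against 7.58 ± 0.991), Cyp9b2 (127 ± 6.28 against 27.5 ± 3.05), Cyp49a1 (34.6 ± 4.52 against 1.67 ± 0.836) and Cyp313a3 (50.1 ± 9.05 against 4.63 ± 0.20). Cyp6a9 (19.9 ± 2.86 against 64.1 ± 2.55) and Cyp6a23 (7.08 ± 0.753 against 47.9 ± 2.94) were higher in parovaria. Jheh3, a juvenile hormone epoxide hydrolase, was at 377, 407, 262 and 233 in spermathecae, against 13.7, 9.5, 6.43 and 6.94 in parovaria (log2 fold change 5.12 ± 0.31, adjusted p = 0.00031), the 1 call of 13 tested juvenile hormone genes. jhamt, which makes juvenile hormone, was low in both glands (5.66 ± 2.40 against 3.14 ± 1.94, adjusted p = 1). Sod3, the extracellular superoxide dismutase, was at 16.2, 16, 13.1 and 12.1 in spermathecae, against 248, 225, 158 and 196 in parovaria (-3.85 ± 0.17, adjusted p = 2.3e-05), and GstE5 at 3.61 ± 0.278 in spermathecae and 24.2 ± 3.59 in parovaria. They were the 1 call of 16 tested peroxide and oxidoreductase genes and the 1 of 23 glutathione S-transferases, and 1 of 14 UDP-glycosyltransferases was called, shares near the 5.29% of all genes. Hexokinase Hex-A (657 ± 169 against 131 ± 18.1) and the sugar transporter sut1 (12.8 ± 3.11 against 2.95 ± 0.0737) were 2 of 25 tested genes of sugar metabolism.

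Of 43 tested secretory pathway genes 0 were called in edgeR's quasi-likelihood test, while 7 were higher and 6 lower in spermathecae at a Benjamini-Hochberg p of 0.05, and their summed level was 12517 ± 707 in spermathecae and 13266 ± 1029 in parovaria. In the same test 0 of 85 cytosolic ribosomal protein genes, 0 of 66 nuclear genes of oxidative phosphorylation and 0 of 26 polarity genes were called. At the Benjamini-Hochberg threshold 3 ribosomal genes were higher and 8 lower in spermathecae, 20 oxidative phosphorylation genes higher and 1 lower, and 3 polarity genes higher and 13 lower, beside 21.2% and 21% of all genes. Oxidative phosphorylation genes were higher in spermathecae by any amount in 59 of 66, with a median log2 fold change of 0.24, and polarity genes lower in 19 of 26, with a median of -0.74. Of 14 genes of the unfolded protein response, Edem2, which takes misfolded glycoproteins out of the endoplasmic reticulum, was the 1 called (145 ± 15.4 against 65 ± 4.18). This 1 of 14 stands beside 5.29% of all genes tested. The mitochondrial 16S ribosomal RNA mt:lrRNA, among the most abundant transcripts of both glands, was at 46071 ± 3112 in spermathecae and 34331 ± 4819 in parovaria and was not called.

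Yolk protein transcripts were present in both glands and higher in parovaria without passing the threshold. Yp1 was at 6987, 4890, 3781 and 4506 in spermathecae, against 10220, 11864, 9384 and 8655 in parovaria (log2 fold change -0.99 ± 0.19, adjusted p = 1 in edgeR, with a Benjamini-Hochberg adjusted p of 0.0033). Yp2 and Yp3 had log2 fold changes of -0.81 and -0.64. Fat body markers, given above, moved the same way, with a median of -0.67 over 11 tested. NLaz, a lipocalin and the 1 fat body marker called, was at 75.2, 80.4, 129 and 115 in spermathecae, against 681, 555, 795 and 840 in parovaria. The part of attached fat body in these values was not tested. Gld, glucose dehydrogenase, was below the expression filter in both glands (0.0655 ± 0.0756 against 0.593 ± 0.194).

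**Figure D4:**
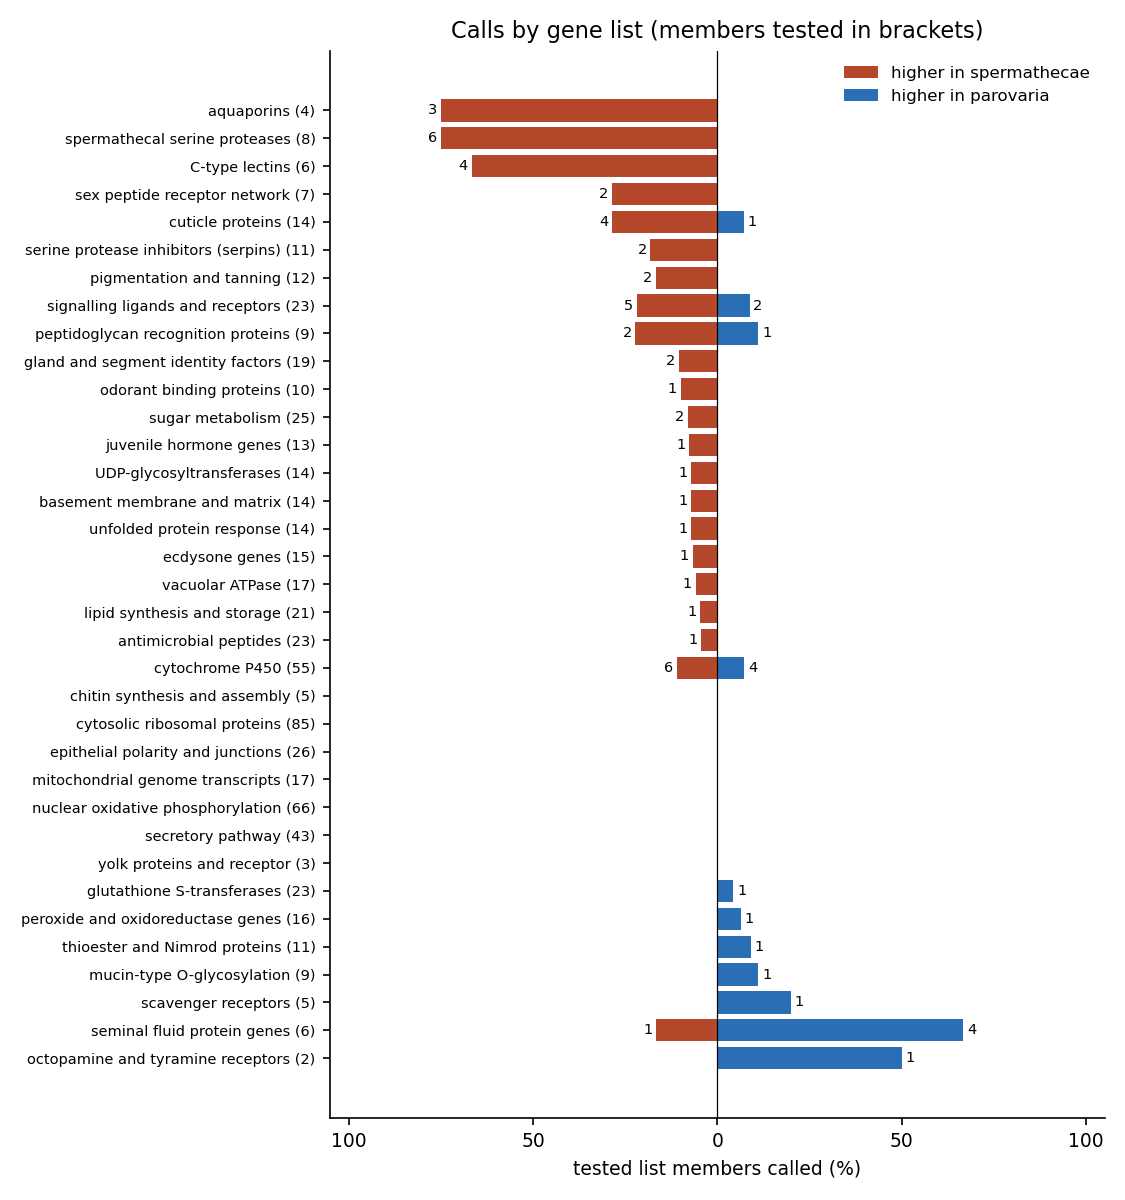
Percent of the tested members of each list that were called higher in spermathecae (left bars) or in parovaria (right bars), with the number of genes at the bar and the number tested in brackets. Over all genes tested 3.21% were called higher in spermathecae and 2.08% in parovaria. Serine proteases, aquaporins and C-type lectins lie farthest to the left and seminal fluid genes farthest to the right. The 4 seminal fluid genes at right, and lectin-33A, Lectin-galC1 and Eglp2 at left, passed the expression filter only through the gland where they were higher.

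The gland difference was also measured after mating. At 6 h (4 spermathecae and 3 parovaria libraries) 102 of 7436 genes were called (1.37%), 53 of them higher in spermathecae (0.713%) and 49 in parovaria (0.659%). At 24 h (4 and 4 libraries) 106 of 7626 were called (1.39%), 68 higher in spermathecae (0.892%) and 38 in parovaria (0.498%). Of the 239 genes called higher in unmated spermathecae, 237 could be tested at 6 h, where 236 had the same direction and 46 were called again, and 238 at 24 h, where 236 had the same direction and 61 were called. The exceptions were PGRP-LA at 6 h (log2 fold change -0.08) and PGRP-LA and Edem2 at 24 h (-0.22 and -0.15). All 155 parovarian genes kept their direction at 6 h, 45 of them called, as did all 154 tested at 24 h, 37 of them called. These were other libraries than the unmated ones. The median log2 fold change of the spermathecal genes was 3.09 unmated and 2.52 at 6 h over the same genes, and that of the parovarian genes -2.90 and -2.64. Over the genes tested at 24 h the medians were 3.10 unmated and 2.71 at 24 h, and -2.87 and -2.72. The genes were chosen by their calls in the unmated libraries, which favours large values there. Smaller medians in other libraries therefore do not show that the gland difference shrank. A lower count of calls does not by itself show that fewer genes differed.

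Tests of the change itself called few genes. The difference at 6 h minus that in unmated females passed the threshold for 5 of 7621 genes (0.0656%), with 755 at an unadjusted p under 0.05. CG6928 was at 2.91 CPM in unmated spermathecae and 27.2 at 6 h, and at 2.49 and 3.03 in parovaria at the same times, a change in the gland difference of 2.82 ± 0.24 on the log2 scale (adjusted p = 7e-05). Cbs, cystathionine beta-synthase of the transsulfuration pathway, was at 376 CPM in unmated spermathecae and 70.8 at 6 h, and at 30.3 and 32.8 in parovaria (-2.56 ± 0.29, adjusted p = 0.0024). Bhmt, CG13284 and Efr had changes of -1.76, -1.63 and -1.56. In each of the 5 genes the spermathecal mean moved more than the parovarian mean. At 24 h edgeR's quasi-likelihood test called 0 of 7714 genes, with 256 at an unadjusted p under 0.05, and likewise 0 with the sequencing run in the model.

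Send1, Send2 and CG17234 moved alike in both glands through mating, but not every protease did. CG31681 averaged 37359 CPM unmated and 39587 at 24 h in spermathecae, against 890 and 616 in parovaria. Ser12 averaged 12428 and 13114 in spermathecae at these times, against 310 and 264 in parovaria. Send2 averaged 1209, 37701 and 1768 CPM in spermathecae unmated, at 6 h and at 24 h, and 32.3, 1041 and 43.8 CPM in parovaria at the same times, which is 2.67%, 2.76% and 2.48% of the spermathecal level. Send1 moved the other way, at 54686, 7930 and 20453 CPM in spermathecae and 1135, 236 and 338 CPM in parovaria, or 2.08%, 2.97% and 1.65%. For CG17234 the shares were 3.12%, 3.31% and 3.88%. yellow-d, above the shares of the serine proteases, was in parovaria at 8.37%, 14.3% and 6.16% of its spermathecal level. CG42705 was in spermathecae at 11.2%, 4.75% and 8.67% of its parovarian level, and CG42704 at 0.45%, 0.43% and 0.64%. These shares are ratios of group means with no test, and their cause was not tested.

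**Figure D5:**
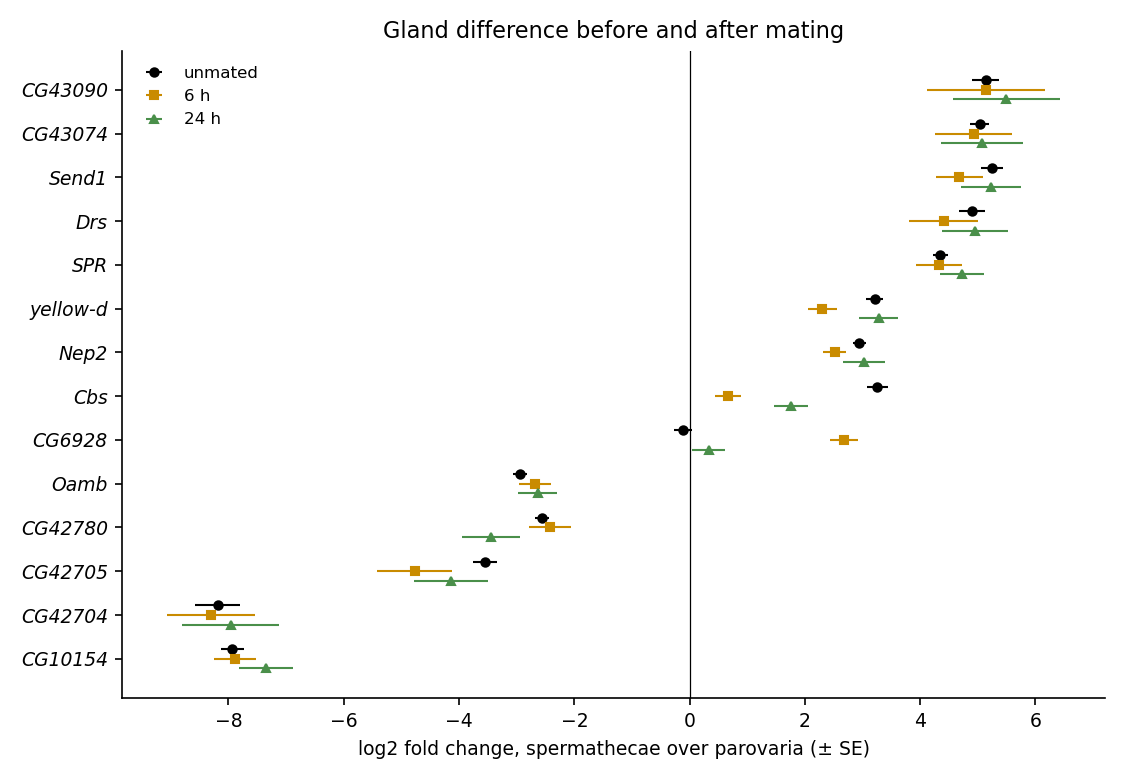
Log2 fold change, spermathecae over parovaria, of 14 genes in unmated females (circles), at 6 h (squares) and at 24 h (triangles) with standard errors. Most genes keep their place at all 3 times, while CG6928 lies near 0 except at 6 h (2.68) and Cbs lies at 3.25 in unmated females and 0.67 at 6 h.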

How the data were processed

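RNA was sequenced at BGI as 50 base single-end reads, and the authors aligned them to FlyBase r6.21 using HISAT2 2.1.0. Gene counts came from StringTie. The table the authors deposited holds raw counts for 17752 genes in 64 libraries, although its name says CPM: values are whole numbers that sum to a different total in each library, and the authors' TMM scaling is not part of them. Of the gene identifiers 99.28% were found in the BDGP6.54 annotation, which gave symbols, positions and lengths. TPM was computed from counts and summed exon length.

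Genes above 2 CPM in at least 2 libraries of either gland were tested with edgeR 4.0.16 (R 4.3.3, glmQLFit and glmQLFTest, TMM factors, unpaired, no covariate), and a gene was called at a Bonferroni-adjusted p of at most 0.01 over all genes tested. Adjusted p in the text is this value unless named otherwise. A gene could pass the expression filter through 1 gland alone. Its direction was then close to fixed, so list shares that hold such genes are not independent evidence. The test was checked on simulated counts of 4 against 4 libraries. There 79.8% of 99 genes changed 4-fold, 3.06% of 98 changed 2-fold and 0 of 7141 unchanged genes were called. The simulation gave every gene the same dispersion and had no run effect, unlike the data. These shares therefore show that the code works and do not measure power or error here. Depth was like among libraries, so the spread between replicates set the precision. Replicates of a gland differed by more than counting noise in every pair and were kept as 4 samples. limma 3.58.1, DESeq2 1.42.0, Python 3.11.15, pandas 2.3.3, numpy 2.4.6 and matplotlib 3.10.9 were also used. Alternatives were other scalings, filters, tools, the run, the replicate number and each library left out.

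The comparison, gene lists and genes were chosen with earlier results of these data known. Named genes are the 12 largest changes per direction with a mean of at least 10 TMM-scaled CPM, the 5 most abundant called genes per gland and the 5 most abundant over both, up to 8 members of a described list, and Hr39, lz, Send1, Send2, Yp1, Yp2, Yp3, Gld, jhamt, SPR and Oamb. Other genes were added after their values were seen. The 3 columns of parovaria at 6 h could be tied to their group but not to a replicate. Of 163 genes followed, 64 overlap another annotated gene. No sequences were at hand, so signal peptides were not analysed here.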

Additional observations from a re-analysis of the deposited data

Results flagged for a closer look

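In 310 groups of 4 libraries checked for a library far from the other 3, 11 were found, and chance marks about 1 group in 20. Gut markers summed to 420 TMM-scaled CPM in spermathecae replicate 1, against 8.72 to 16.4 in the other 3 spermathecae. Eggshell markers summed to 13.8 in spermathecae replicate 1, against 0.922 to 3.07 in the others, and to 34.6 in parovaria replicate 1, against 1.84 to 3.13. The other 8 concern single genes. In spermathecae CG42780 was at 4060 in replicate 4 (others 4329 to 4353), Ncc69 at 446 in replicate 4 (others 503 to 511) and Tep4 at 193 in replicate 2 (others 211 to 213). In parovaria CG43074 was at 2451 in replicate 2 (others 3174 to 3232), Cpr66Cb at 3.42 in replicate 2 (others 2.44 to 2.54), Edem2 at 58.7 in replicate 4 (others 66.8 to 67.3), Idgf6 at 886 in replicate 3 (others 933 to 937) and ImpL2 at 238 in replicate 1 (others 309 to 319). None of these libraries brought its gene into the range of the other gland.

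The gland difference changed between unmated females and 6 h postmating in 5 genes by edgeR's interaction test (4 unmated libraries of each gland, 4 spermathecae and 3 parovaria at 6 h). The log2 fold change, spermathecae over parovaria, of Cbs was 3.25 unmated and 0.67 at 6 h, a change of -2.56, and that of CG13284 was 2.68 and 1.03, a change of -1.63. For Bhmt it was 0.41 and -1.37, a change of -1.76, and for Efr -0.30 and -1.88, a change of -1.56. For CG6928 it was -0.12 and 2.68, a change of 2.82. The cause of these changes was not tested.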

How the results depend on the processing

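Counts of calls moved with the threshold and the tool. Against 394 genes (239 higher in spermathecae, 155 higher in parovaria), a Benjamini-Hochberg threshold of 0.05 gave 3138 (1577 and 1561), DESeq2 1207 (593 and 614), run 1 alone 135 (83 and 52) and run 2 alone 124 (79 and 45), the last 2 with fewer libraries. A fit of all unmated tract libraries called 243 genes higher in parovaria. Leaving out 1 library gave 268 to 327 genes, 165 to 190 higher in spermathecae and 103 to 137 higher in parovaria, with the lowest counts without spermathecae replicate 3 (268 and 103). All 394 genes were among the calls of DESeq2, and limma-voom shared 340, other size factors 382 and a model with the run 377 of them. The share of the most abundant gene was 11.2% to 12.5% in spermathecae and 31.4% to 35.1% in parovaria with 1 library left out, and that of the top 10 genes 45.5% to 47.6% and 58.1% to 62.1%.

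At 6 h the Benjamini-Hochberg threshold called 924 genes and at 24 h 733, and it called 49 genes for the change of the gland difference at 6 h, where the run as a covariate gave 8. Over 161 genes followed and their alternatives, 2839 of 3358 values kept direction and side of the threshold, 474 no longer passed it, 44 passed it newly and 1 changed sign, that of EbpIII in run 2 alone (0.0292, against -0.27 with both runs, uncalled in each).

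Both glands carry replicate numbers 1 to 4. The paper separated the tissues of dissected tracts and pooled them over collections, so same-numbered libraries may share females. The correlation of same-numbered deviations was 0.37, 0.042, 0.34 and 0.40. It was the highest for spermathecae replicates 1, 3 and 4, while replicate 2 correlated best with parovaria replicate 1 (0.37). Whether the numbers pair the libraries was not settled, and the main test ignores any pairing. The common biological coefficient of variation in edgeR was 0.222 without a covariate, 0.183 with the run and 0.177 with a replicate block. With a replicate block 266 genes were called (161 and 105), 242 of them among the 394. Hydrophobic stretches of the encoded proteins were not analysed here.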

Other observations

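Some groups outside the lists were noticed in the values, and their counts are descriptions of genes picked afterwards. Of 34 tested translation initiation factors 20 were lower and 2 higher in spermathecae at a Benjamini-Hochberg p of 0.05, beside 21% and 21.2% of all genes. Their summed level was 4931 ± 277 TMM-scaled CPM in spermathecae and 6984 ± 316 in parovaria (SD, n = 4 each), and eIF3l and eIF3m were called (log2 fold changes -1.13 and -1.14). All 8 subunits of the cytosolic chaperonin, which folds actin and tubulin, were higher in spermathecae at the same threshold, by 0.48 to 0.77 on the log2 scale, with 0 called by Bonferroni.

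Single genes outside the lists, picked after their values were seen, were called in both directions. vg, the selector gene of the wing, was at 76, 101, 85.6 and 104 in spermathecae, against 3.8, 4.94, 2.7 and 3.36 in parovaria. Mef2, a factor of muscle and fat body, was at 173, 180, 162 and 223 in spermathecae, against 21.5, 33.8, 31.7 and 25.3 in parovaria, although the muscle and fat body marker sums were lower in spermathecae. In the other direction ovo was at 0.946 ± 0.263 in spermathecae and 11.3 ± 3.54 in parovaria, and Dad, an inhibitor induced by dpp signalling, at 7.01 ± 1.62 and 29.6 ± 4.67. ImpL2, a secreted binder of insulin-like peptides, was at 2.18, 1.52, 3.62 and 3.69 in spermathecae, against 238, 309, 312 and 319 in parovaria. sNPF-R, a neuropeptide receptor, was at 0.92 ± 0.165 in spermathecae and 21.6 ± 2.86 in parovaria, and the odorant receptor gene Or1a at 0.654 ± 0.321 and 30.0 ± 2.49. Or1a lies within CG3777 on the same strand, so their counts could be split. kug, an atypical cadherin, was at 1.2 ± 0.717 in spermathecae and 107 ± 26.2 in parovaria.

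Further called genes were picked in the same way, while of the fixed lists 0 of 43 secretory pathway genes, 1 of 14 unfolded protein response genes and 1 of 16 oxidoreductase genes were called. Fkbp14, a prolyl isomerase of the endoplasmic reticulum, was at 1243 ± 192 in spermathecae and 143 ± 8.05 in parovaria, and PH4alphaEFB, a collagen prolyl hydroxylase, at 553 ± 38.3 and 48.2 ± 1.96. Qsox1, a sulfhydryl oxidase, was at 45.9 ± 2.38 in spermathecae and 429 ± 33.2 in parovaria. Gclc and Gclm, the subunits of the enzyme that starts glutathione synthesis, were both higher in spermathecae (84 ± 3.34 against 25.9 ± 3.37, and 117 ± 14.9 against 33.4 ± 2.70). Among the chitinase-like Idgf proteins, Idgf4 (833 ± 13.8 against 210 ± 11.1) and Idgf2 (183 ± 29.2 against 68.4 ± 4.48) were higher in spermathecae and Idgf6 (279 ± 27.9 against 923 ± 24.7) in parovaria.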
